A study of Homo sapiens with 60 samples.

Results

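The regions described here carried H3K27Ac in untreated wild-type (WT) and METTL7A knockout (KO) PC9 cells. Under osimertinib they held no H3K27Ac peak that passed a limit on reproducibility in either genotype. Peaks of the 6 H3K27Ac lists with a global irreproducible discovery rate (IDR) of 0.05 or less on chromosomes 1 to 22 were pooled, and overlapping peaks were merged into 21390 regions. Of these, 3177 held a passing peak in both untreated lists, and 273 of the 3177 held a passing peak in neither osimertinib list. Presence in a list and absence from it refer below to passing peaks, unless deposited peaks are named. The 273 regions, called members below, were therefore chosen by the IDR values of the WT and KO lists. Their values in those lists are a description and were not tested. The lists of the other antibodies took no part in the choice. Presence in a Rescue list was not part of the rule either. Passing Rescue peaks were pooled, however, and so helped to set the bounds of the regions. All merged regions include those that passed in a Rescue list alone, so their Rescue shares are partly set by the pooling. Regions with a passing peak in all 4 WT and KO lists, 1767 of the 3177, serve as the comparison and are called kept regions.

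PC9 is a lung adenocarcinoma line that depends on mutant EGFR, and osimertinib is an inhibitor of that receptor. WT cells, KO cells and Rescue cells, which are the knockout cells made to overexpress METTL7A with a MYC and FLAG tag, were either left untreated or grown under osimertinib at a dose raised from 100 nM over 6 to 8 weeks. The treated cells are therefore a population kept under the drug for weeks, and Rescue cells still carry the knockout and express a tagged protein above it. Each of the 6 conditions had 2 CUT&RUN samples per antibody, and each list joins both samples of its condition, so a condition has a single list. No source says that the samples came from separate cultures.

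H3K27Ac, acetylation of lysine 27 on histone H3, is found at active promoters and enhancers and is written mainly by the acetyltransferases p300 and CBP. A region that loses its acetylation is usually one whose regulatory activity falls. RAD21 is a core subunit of cohesin, the ring complex that holds chromatin loops, and PDS5A is a cohesin regulator that binds the ring. CUT&RUN releases and sequences DNA where an antibody is bound. The IDR measures how far the rank of a peak among all peaks of its list agrees between both replicates, so that a peak can fail it by being weak in both replicates or by being strong in only 1.

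Under osimertinib the H3K27Ac lists of WT and KO cells became longer. Passing peaks on these chromosomes went from 5045 to 10077 in WT cells and from 5420 to 8383 in KO cells, and from 14177 to 12991 in Rescue cells. All deposited peaks, whatever their IDR, numbered 22245 untreated and 43401 treated in WT, 23305 and 38466 in KO, and 38691 and 44401 in Rescue cells. The lists hold no read totals, so depth is unknown. A −log10 p, the strength the authors' peak caller gave a peak in 1 replicate, is comparable between peaks of the same replicate. Between replicates and between lists it is only set side by side.

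Absence from the osimertinib list was common in each genotype and less frequent in both together. In WT cells 36.2% of the regions in the untreated list were absent from the treated list, and in KO cells 29.2%. Of the 3177 regions in both untreated lists, 946 (29.8%) were absent in treated WT and 737 (23.2%) in treated KO cells, and the 273 members are 8.59% of them. Absence in KO cells was found at 28.9% of the regions absent in WT cells and at 20.8% of the 2231 regions that WT cells held. The opposite pattern, absence from both untreated and presence in both treated lists, was met at 1359 of 14324 regions. These regions entered the pool only through a treated or Rescue list, so this share is not a counterpart of the 8.59%.

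A deposited peak was present in treated cells at every one of these regions, so the word lost does not describe them well. All 273 members overlapped a deposited H3K27Ac peak of treated WT or treated KO cells, 261 (95.6%) in both lists and 12 in 1 list. This was near the background: all 3177 regions had such a peak in at least 1 treated list and 98.6% in both, and of all merged regions 97.6% and 79.6%. Treated WT cells had such a peak at 263 members and treated KO cells at 271. With 0 of 273 members lacking one in both lists, a share of up to 1.1% cannot be told from 0. What the members have in common is that their treated peaks did not meet the IDR limit. The regions just inside and just outside that limit lie close together. Among members the treated peak nearest to the limit had an IDR of 0.0521 in WT and 0.0505 in KO cells, and among kept regions 0.0497 and 0.0498. An IDR under 0.1 was reached by 85 members in at least 1 treated list and by 10 members in both.

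In the untreated lists both replicates of a member gave similar values, and in the treated lists they often did not. The median lower and higher replicate values of the members were 17.8 and 23.4 in untreated WT cells and 14.7 and 20.0 in untreated KO cells. Under osimertinib they were 7.56 and 16.3 in WT and 7.57 and 19.1 in KO cells. The median value of the weaker replicate was thus below the untreated one, while that of the stronger was closer to it. Kept regions had 20.6 and 31.0 in treated WT and 23.3 and 30.4 in treated KO cells. The values of the replicates differed by more than 2 times at 10 of 273 members in untreated WT and at 10 of 273 in untreated KO cells. In treated cells this was so at 148 of 263 members in WT (56.3%, Wilson 95% interval 50.2 to 62.1) and at 174 of 271 in KO cells (64.2%, 58.3 to 69.7). Of the kept regions, 14.5% in treated WT and 3.11% in treated KO cells differed that much, and of all regions 26.5% and 19.03%. Regions absent in treated WT alone had 61.1% in treated WT cells, and regions absent in treated KO alone had 71.6% in treated KO cells, so regions absent in 1 genotype showed it as well. This contrast was used by the choice of regions, since a region with unlike replicates fails the IDR.

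The stronger replicate was not always the same one. The lists do not number their replicate columns, so they are called the first and the second here. Among the members whose treated replicates differed by more than 2 times, the second was the higher at 115 and the first at 33 in WT cells, and in KO cells at 92 and 82. Of the 261 members with a deposited peak in both treated lists, 95 had such unlike replicates in both genotypes, 52 in WT alone, 76 in KO alone and 38 in neither. The counts by direction and by genotype were not made for other regions and only describe the members.

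**Figure D1:**
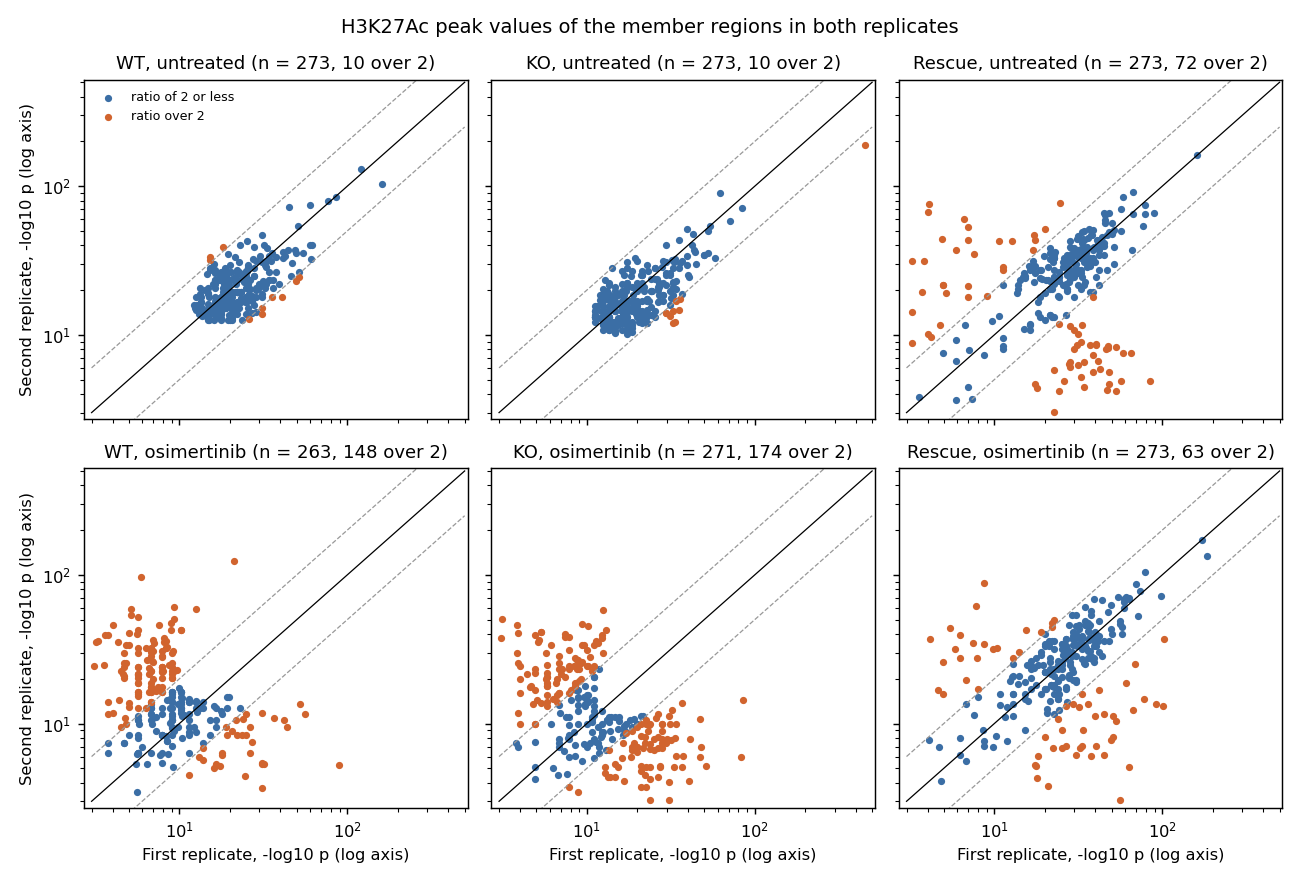
Each point is a member region, with its −log10 p in the first replicate on the x axis and in the second on the y axis (both log axes), in 1 panel per H3K27Ac list. Solid lines mark equal values, dashed lines a ratio of 2, and points in orange lie beyond it: 10 in each untreated WT and KO list, 148 in treated WT and 174 in treated KO cells.

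In at least 1 replicate most members reached the value of the weakest passing peak, which is a low bar. The weakest passing peak had a lower replicate value of 9.89 in the treated WT list and 11.1 in the treated KO list. At least 1 replicate reached that value at 228 of 263 members (86.7%) in WT and at 233 of 271 (86.0%) in KO cells. Both replicates reached it at 50 members in WT and 26 in KO cells, and neither at 35 and 38. These counts were not made for other regions, so they have no background beside them and only describe the members. Over all regions with a deposited peak the median higher value was 19.3 in treated WT and 16.1 in treated KO cells. Both medians lie above the weakest passing values, so reaching these is not particular to members. The higher treated value exceeded the higher untreated value at 78 members (28.6%) in WT and at 99 (36.3%) in KO cells, against 57.7% and 66.5% of kept regions. The lower treated value exceeded the lower untreated one at 1 member in WT and 4 in KO cells, against 46.0% and 69.9% of kept regions. The treated values of members were thus mostly lower, in 1 replicate or in both. Both treated values lay under both untreated ones, in WT and in KO cells, at 62 of 273 members (22.7%), where a missing peak counted as below. The same held at 72 of 1767 kept regions (4.07%) and at 6.99% of all 3177 regions, and the rule itself favours such regions.

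The 10 strongest members, ranked by the lowest of their 4 untreated WT and KO values, show both forms. In each sentence the values are −log10 p of the first and the second replicate, and positions are on GRCh37. The strongest, chr21:9825433-9827557, had 121 and 131 in untreated and 13.0 and 5.99 in treated WT cells. In KO cells it had 452 and 188 against 85.0 and 14.5, and in Rescue cells 27.7 and 22.8 against 186 and 135. Treated values were the lower ones in WT and KO cells and the higher ones in Rescue cells, with no overlap, and a deposited IgG peak lay on this position in all 6 conditions. At chr19:47103354-47105500 WT cells had 76.7 and 78.9 against 36.4 and 10.9. KO cells had 83.7 and 70.8 against 51.3 and 5.17 there, and Rescue cells 6.94 and 4.43 against 99 and 71.8. Its values under osimertinib were again lower in WT and KO cells and higher in Rescue cells.

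At chr10:47054140-47059133 the KO groups overlapped. WT cells had 162 and 104 untreated and 89.1 and 5.26 treated, and KO cells had 62.0 and 89.9 against 83.2 and 5.98. Rescue cells had 161 and 162 against 172 and 172, so treated values were lower in WT and higher in Rescue cells, and the lowest were those of the second treated replicate in WT and KO cells. At chr19:13960714-13964854 WT values were 86.2 and 84.4 against 12.6 and 58.5, and KO values 71.4 and 58.6 against 6.81 and 16.1. Untreated Rescue replicates disagreed there, with 4.07 and 75.5 against 36.4 and 45.6 under osimertinib. At chr16:69757667-69763754 WT values were 59.7 and 75.2 against 3.74 and 6.37, KO values 52.9 and 50.2 against 12.3 and 39.7, and Rescue values 58.1 and 7.55 against 54.2 and 71.0. Both treated WT replicates were under 7 there, the lowest treated WT pair of the 10.

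At chr2:27431426-27436308 WT cells had 60.0 and 40.5 against 7.45 and 17.5, KO cells 54.5 and 53.6 against 10.2 and 45.2, and Rescue cells 48.3 and 49.4 against 101 and 13.1. At chr20:32375140-32379672 WT cells had 44.7 and 72.7 against 6.93 and 36.6, KO cells 39.6 and 51.8 against 31.6 and 7.81, and Rescue cells 89.1 and 66.2 against 8.54 and 9.08. All 6 treated replicates of the latter lay under the untreated ones of their genotype, Rescue included. At chr5:32172152-32175455 WT cells had 51.2 and 53.9 against 5.89 and 96.1, KO cells 52.9 and 35.8 against 12.3 and 37.7, and Rescue cells 78.7 and 74.5 against 66.9 and 12.3. Here the second treated WT replicate was above both untreated ones.

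At chr17:46686378-46688338 WT cells had 49.5 and 35.7 against 7.85 and 27.9, KO cells 43.3 and 37.3 against 3.14 and 50.3, and Rescue cells 6.94 and 52.9 against 70.2 and 87.1. At chr17:18622093-18623717 WT cells had 61.9 and 40.2 against 26.5 and 9.43, KO cells 35.6 and 43.7 against 8.90 and 14.9, and Rescue cells 46.7 and 46.6 against 45.1 and 35.7. All 6 treated replicates were again the lower ones, in Rescue cells by a small margin, and this region lay on no RAD21, PDS5A or deposited IgG peak. Of the 10, replicates differed by more than 2 times at 9 in treated WT and at 9 in treated KO cells, 7 were in the treated and 6 in the untreated Rescue list, and 8 lay on a deposited IgG peak.

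**Figure D2:**
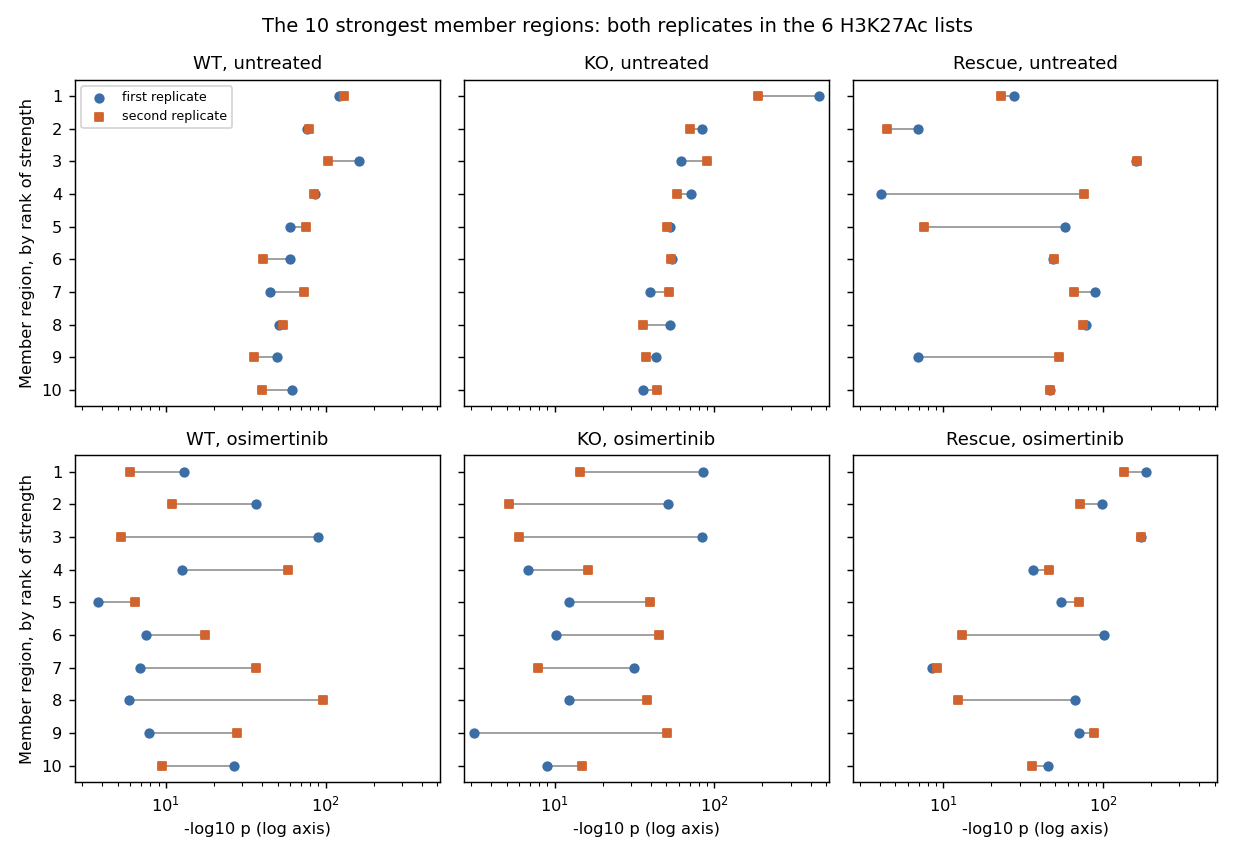
The −log10 p (x axis, log scale) of the first and the second replicate, joined by a line, for the 10 strongest members (y axis, rank 1 at the top) in the 6 H3K27Ac lists. Lines are short in untreated WT and KO cells apart from rank 1 in KO, and long in most rows of the treated WT and KO panels, where rank 3 spans 5.26 to 89.1 in WT cells.

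The 12 members with a deposited peak in 1 treated list only were picked out after their values were seen. Of these, 10 lacked a peak in treated WT and 2 in treated KO cells, and 10 of the 12 were in each Rescue list. The strongest of the 12 was chr14:90977693-90981097, with no peak in treated WT cells, 29.5 and 20.3 in untreated WT cells, 29.7 and 30.7 against 27.9 and 7.91 in KO cells and 22.8 and 3.04 against 57.3 and 44.5 in Rescue cells. It was followed by chr14:100679911-100681716, also without one in treated WT cells, with 22.1 and 27.2 in untreated WT cells, 22.7 and 17 against 5.70 and 29.8 in KO cells and 39.0 and 39.0 against 56.4 and 48.9 in Rescue cells. At both positions WT cells lost the deposited peak, KO cells kept 1 replicate near the untreated level and Rescue cells were higher under osimertinib.

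The treated peaks on members mostly covered the untreated ones, and in WT and KO cells their median width was larger. The median width of the joined peak at members went from 1859 to 2449 bp in WT and from 1651 to 2403 bp in KO cells. The treated peak covered a median 99.3% of the untreated peak in WT and 100% in KO cells, and was at least as wide at 175 of 263 members (66.5%) and 219 of 271 (80.8%). It was at least as wide at 71.6% and 77.2% of kept regions and at 73.1% and 78.2% of all regions with both peaks, so members were below these in WT and near them in KO cells. In Rescue cells the median went from 2503 to 2200 bp, and the treated peak was at least as wide at 36.3% of members and at 41.5% of all regions. The median width of kept regions went from 1609 to 1869 bp and from 1501 to 1769 bp.

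The weaker replicate at a member was a wide peak of low value. In the treated WT list, peaks with a lower replicate value of 5 to 7 had a median width of 2059 bp in that replicate on members (n = 101) and of 518 bp elsewhere. At 3 to 5 the widths were 2542 and 386 bp, with 41 peaks on members. In the treated KO list they were 2064 and 546 bp at 5 to 7 (n = 85). The gap was smaller in untreated lists at the values where most members lay: at 15 to 20 in untreated WT cells the widths were 1492.5 and 1353 bp, and at 10 to 15 in untreated KO cells 1183.5 and 1076 bp. In the untreated Rescue list, which did not choose the members, it appeared again, with 2786 bp on 25 member peaks and 545 bp elsewhere at 5 to 7. In the treated Rescue list it was 2410 bp on 26 member peaks and 505 bp elsewhere. Regions absent in 1 genotype showed the shape as well, so it was not particular to members. In treated WT cells the median lower value and width of that replicate's peak were 7.85 and 1746 bp at regions absent there alone. Members had 7.56 and 2065 bp. In treated KO cells they were 7.48 and 2298.5 bp at regions absent there alone, and 7.57 and 2185 bp at members. Peaks elsewhere include those outside all merged regions. No cause of this shape was tested.

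**Figure D3:**
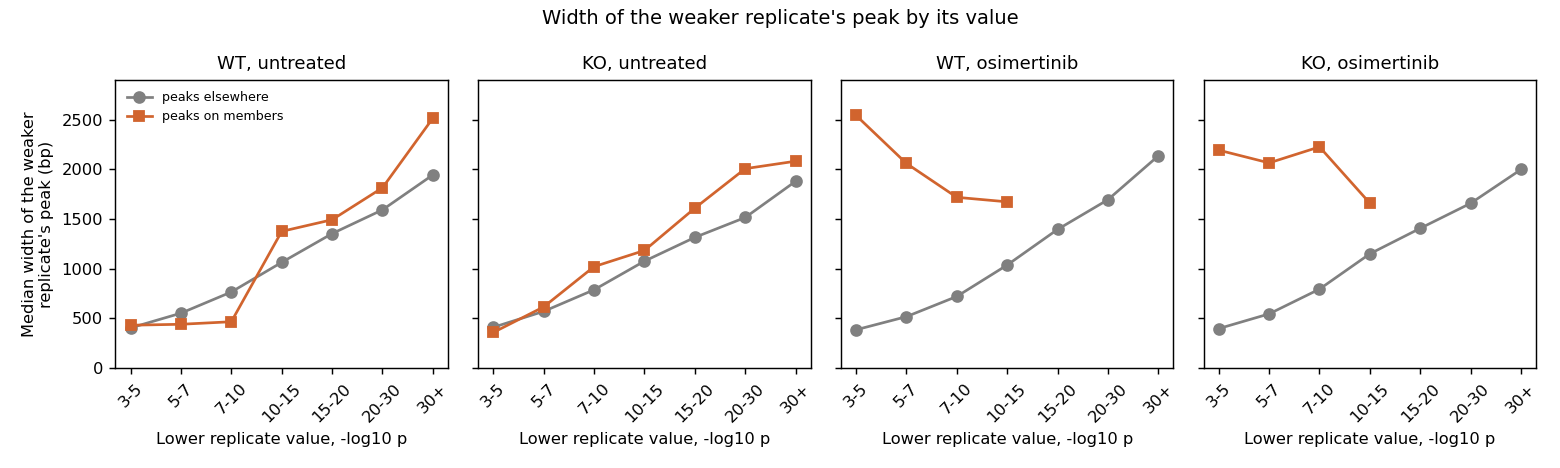
Median width in bp (y axis) of the weaker replicate's peak, by its −log10 p (x axis, in ranges), for peaks on members (orange) and all other peaks (grey) of the WT and KO lists; ranges with under 5 member peaks are left out. In the treated panels weak peaks on members are wide, 2059 bp against 518 bp at 5 to 7 in WT cells, while in the untreated panels both lines lie closer together.

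Rescue cells, whose lists entered the pooling but not the rule, did not share the absence at most members. The untreated Rescue list held 190 of 273 members (69.6%, Wilson 95% interval 63.9 to 74.8) and the treated one 199 (72.9%, 67.3 to 77.8). Both lists held 149, the untreated one alone 41, the treated one alone 50 and neither 33. Kept regions were found there more often, 88.9% (87.4 to 90.3) untreated and 88.0% (86.4 to 89.4) treated. Over the 3177 regions in both untreated lists the shares were 84.9% and 82.7%. Over all merged regions they were 65.5% and 59.4%, the former within the interval of the members and the latter below it. Regions that passed in a Rescue list alone are among the merged regions, so these shares are partly set by the pooling. Regions absent in treated WT alone had 85.0% and 82.0%. Regions absent in treated KO alone had 78.7% and 69.2%, the latter below the share of the members. These intervals cover counting error only, and no test was made because regions of 1 list are not replicates.

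Of the 190 members in the untreated Rescue list, 41 (21.6%, 16.3 to 28.0) were absent from the treated one. Over all 14003 regions of that list, which include regions that passed in no other list, the share was 35.3%. Among the regions the members were drawn from, those in both untreated WT and KO lists, it was 388 of 2698 (14.4%, 13.1 to 15.8). The members thus lay below all regions of the list and above the set they came from. Kept regions left it at 10.7% (9.26 to 12.3), regions absent in treated WT alone at 14.3% (11.7 to 17.4) and regions absent in treated KO alone at 26.6% (22.3 to 31.3). The interval of the members overlapped those of both latter groups and lay above that of kept regions. Of the 83 members that untreated Rescue cells lacked, 50 (60.2%, 49.5 to 70.1) were in the treated list, against 49.2% of all regions and 77.6% of kept regions. The share of all regions is again partly set by the pooling.

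By replicate values the members moved both ways in Rescue cells, and about as often. All 273 had a deposited peak in both Rescue lists. So did nearly all regions of the set they came from, 3177 of 3177 untreated and 3176 treated. Over all merged regions it was 92.0% untreated and 91.3% treated. Both treated values lay under both untreated ones at 60 members (21.98%) and above both at 58 (21.2%). Among all regions with a peak in both lists these shares were 24.3% and 22.1%, close to those of the members. Regions pooled through a Rescue list alone are among them. The regions of both untreated WT and KO lists had 16.7% below and 28.5% above, and kept regions 14.3% and 32.4%. Against the set they were drawn from, members were more often below and less often above. The medians of the lower and the higher value at members were 21.4 and 33.0 in untreated and 20.1 and 32.4 in treated Rescue cells.

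Unlike replicates were also more frequent at members than at kept regions in Rescue cells, treated or not. The values differed by more than 2 times at 72 members (26.4%, 21.5 to 31.9) in the untreated and at 63 (23.1%, 18.5 to 28.4) in the treated list, against 12.7% of kept regions in each and 15.5% and 15.9% of all regions. Regions absent in treated KO alone had about as many, 21.98% (18.5 to 26.0) and 24.4% (20.7 to 28.5). At the 50 members of the treated list alone the medians of the lower and higher value were 6.63 and 30.6 untreated and 25.6 and 36.1 treated, and 40 of them had unlike untreated replicates. At the 41 members of the untreated list alone the medians were 31.5 and 35.7 untreated and 7.98 and 26.0 treated, and 28 had unlike treated replicates. Both groups were formed by passing 1 Rescue list and failing the IDR limit of the other, so a low lower value and unlike replicates in the failed list follow from the grouping.

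The strongest members in both Rescue lists include the regions ranked 1, 3 and 10 above. The next was chr7:7602345-7608358, with 66.6 and 90.7 untreated and 79.0 and 104 treated in Rescue cells, against 60.6 and 32.6 and then 22.9 and 12.8 in WT cells and 49.7 and 34.3 and then 9.39 and 46.6 in KO cells. The last was chr14:105945613-105951290, with 25.7 and 30.7 and then 47.3 and 56.0 in Rescue cells, against 41.6 and 36.2 and then 5.69 and 15.4 in WT cells and 29.6 and 40.5 and then 21.0 and 3.72 in KO cells. WT values were lower under osimertinib in both regions without overlap. At the former the KO and Rescue values overlapped, and at the latter KO values were lower and Rescue values higher under osimertinib.

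The 5 strongest members in neither Rescue list had untreated Rescue replicates that differed by more than 2 times. The treated ones did too, apart from chr2:28972680-28976128. These members were picked for failing the IDR limit in both Rescue lists, so weak or unlike replicates follow from the pick. At chr5:14034824-14038329 Rescue cells had 33.5 and 11.6 untreated and 29.6 and 13.6 treated. At chr1:150533003-150536905 they had 53.2 and 4.18 and then 78.4 and 14.7, and at chr2:28972680-28976128 46.7 and 4.25 and then 10.8 and 13.4. A high first and a low second value marked the untreated samples of all 3. At chr12:45608924-45611606 they had 48.3 and 4.67 and then 45.1 and 6.11, and at chr20:48428086-48430765 18 and 4.41 and then 63.0 and 5.07. Each of the 5 was thus absent from both Rescue lists with at least 1 replicate value of 13.4 or more in each.

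Members that were lower throughout in WT and KO cells were mostly present in treated Rescue cells. Of the 62 members with both treated values under both untreated ones in WT and KO cells, the treated Rescue list held 41 (66.1%). Of the 39 in the untreated Rescue list, 12 (30.8%) were absent from the treated one. Of the 72 kept regions of that form, the treated Rescue list held 64 (88.9%), and 8 of 63 (12.7%) were absent from it.

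The share of members in the Rescue lists was lower among strong than among weak members, within counting error. The 3177 regions were divided into 3 parts of like size by their lower replicate value in untreated WT cells, at 16.6 and 23.4. The untreated Rescue list held 74.8% of members in the weakest part (n = 123), 67.4% in the middle (n = 95) and 61.8% in the strongest part (n = 55), with overlapping intervals. The treated Rescue list held 77.2%, 70.5% and 67.3%. Kept regions showed no such order, with 89.0%, 89.5% and 88.4% untreated and 90.5%, 86.1% and 87.7% treated. The gap to kept regions was present in each part.

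Members lay on cohesin less often than kept regions did. A passing RAD21 peak of untreated WT or KO cells was present at 77 of 273 members (28.2%, 23.2 to 33.8), at 46.7% of kept regions and at 18.8% of all merged regions. Without regions on a deposited IgG peak these shares were 14.3%, 28.0% and 9.04%, and members again lay between both. In untreated cells the members on RAD21 made up 15.8% in WT (11.9 to 20.5), 23.4% in KO (18.8 to 28.8) and 31.5% in Rescue cells (26.3 to 37.2), against 31.4%, 40.9% and 55.3% of kept regions. Under osimertinib the shares of members were 43.6% (37.8 to 49.5), 17.9% (13.9 to 22.9) and 40.7% (35.0 to 46.6), against 71.2%, 35.6% and 65.8%. In each of the 6 lists the interval of the members lay below that of kept regions. Over all merged regions the shares were 11.5%, 16.2% and 24.04% in untreated WT, KO and Rescue cells. In treated cells they were 37.9%, 13.6% and 30.4%. The share of treated WT cells lay within the interval of the members, and the others lay below it. RAD21 of untreated WT or KO cells was present at 38.6% of regions absent in treated WT alone. At regions absent in treated KO alone it was 34.5%, so these groups also lay below kept regions.

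RAD21 became more frequent at members in WT and less frequent in KO cells, as the whole RAD21 lists became longer and shorter. In WT cells 87 members had RAD21 in the treated list alone and 11 in the untreated list alone, and that list went from 3635 to 16340 peaks. In KO cells 18 members had it in the treated list alone and 33 in the untreated list alone, and that list went from 5283 to 4293 peaks. Kept regions moved in the same directions, 759 and 55 in WT and 152 and 246 in KO cells. In Rescue cells 45 members had it in the treated list alone and 20 in the untreated list alone.

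PDS5A, the cohesin regulator, gave the same order. Over all merged regions it was present at 4.83% in untreated and 27.1% in treated WT, 2.05% and 11.996% in KO, and 28.3% and 25.7% in Rescue cells. It was present at 8.06% of members in untreated WT (5.38 to 11.9) and at 29.7% in treated WT cells (24.6 to 35.3), against 12.9% and 55.4% of kept regions. In KO cells 3.66% of members had it untreated (2.0 to 6.61) and 16.8% treated (12.9 to 21.7), against 4.53% and 31.2%. In Rescue cells 35.2% had it untreated (29.7 to 41.0) and 30.04% treated (24.9 to 35.7), against 61.6% and 57.8%. In treated WT, treated Rescue and untreated KO cells the share of all merged regions lay within the interval of the members, in the last near its lower end. In untreated KO cells the intervals of members and kept regions overlapped, as they did in untreated WT cells, and these were the shortest PDS5A lists, with 901 and 1731 peaks. No RAD21 or PDS5A peak of any list was present at 90 members (33.0%), against 11.3% of kept regions and 48.9% of all merged regions.

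In untreated cells the RAD21 share of members rose with strength, while that of kept regions hardly did. In untreated KO cells RAD21 was present at 13.0%, 26.3% and 41.8% of members from the weakest to the strongest part, against 41.6%, 39.7% and 41.5% of kept regions. In untreated WT cells the shares were 10.6%, 15.8% and 27.3% of members and 29.2%, 30.7% and 33.6% of kept regions. For the 55 members of the strongest part the intervals overlapped those of kept regions in both lists (29.7 to 55.0 in KO cells). In treated WT cells the members lay lower in each part, with 40.7%, 42.1% and 52.7% against 72.7%, 71.3% and 69.9%, and the intervals of the strongest part did not overlap (39.8 to 65.3 and 66.3 to 73.3). In the strongest part of the Rescue lists RAD21 was present at 45.5% of members against 57.5% untreated and at 54.5% against 67.3% treated, with overlapping intervals.

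**Figure D4:**
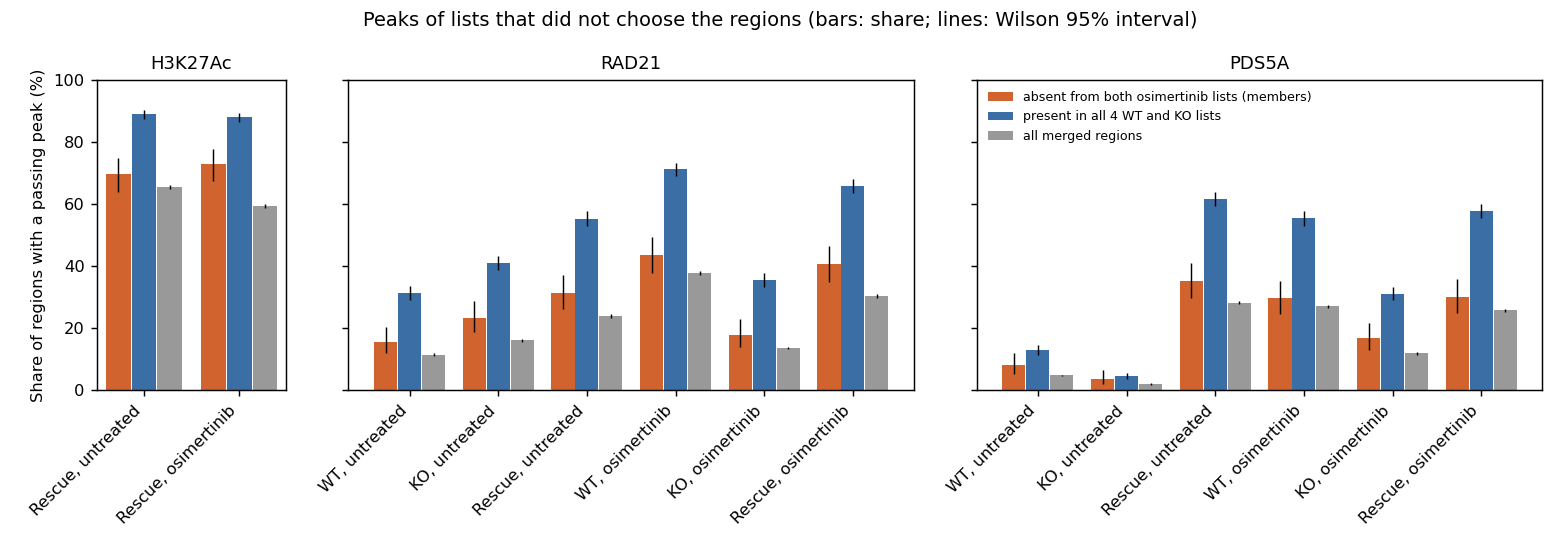
Share of regions with a passing peak (y axis, percent) among members (orange), kept regions (blue) and all merged regions (grey), for H3K27Ac of Rescue cells and for RAD21 and PDS5A of the 6 conditions; thin lines are Wilson 95% intervals. Members lie below kept regions in each pair, with 72.9% against 88.0% for H3K27Ac of treated Rescue cells and 43.6% against 71.2% for RAD21 of treated WT cells.

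IgG, the background control, was met less often at members than at kept regions. A deposited IgG peak of any condition and IDR lay on 119 members (43.6%, 37.8 to 49.5), on 70.1% of kept regions and on 31.7% of all merged regions. Passing IgG peaks of treated WT cells, the longest IgG list, lay on 8 members (2.93%), and those of each other condition on 1 member. The Rescue share was similar on and off these positions. Of the 154 members off IgG, the treated Rescue list held 113 (73.4%), and of the 119 on IgG it held 86 (72.3%). Unlike replicates were more frequent on IgG. They differed by more than 2 times at 66.9% of the members on IgG with a peak in treated WT cells and at 47.6% of those off it, and in treated KO cells at 75.6% and 55.3%. Among kept regions these shares were 13.6% and 16.7% in WT and 3.07% and 3.22% in KO cells. The part of IgG in the unlike replicates was not tested.

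Members were about as wide as kept regions, wider than merged regions in general, and spread over the genome. Their median width was 2410 bp (454 to 7884 bp), against 2320 bp for kept and 1741 bp for all merged regions, and 37 (13.6%) were at least 4000 bp wide, against 11.5% and 6.15%. The widest was chr9:137243584-137251467 at 7884 bp, in neither Rescue list, with 17.4 and 24.6 in untreated and 5.03 and 12.9 in treated WT cells. It was followed by chr20:48859047-48865265 at 6219 bp, in both Rescue lists, and by the region of chromosome 16 named above at 6088 bp. All 22 chromosomes held members, at 5.05% (chromosome 12) to 13.0% (chromosome 10) of the regions in both untreated lists, apart from chromosome 21 with 4 of 18 (22.2%, 9.0 to 45.2).

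No window of 1 Mb gathered many members. Of 237 windows with a member, 204 held 1, 30 held 2 and 3 held 3, on chromosome 16 from 69 to 70 Mb and on chromosome 20 from 48 to 49 and from 52 to 53 Mb. These 3 windows also held 2, 3 and 3 kept regions, and 170 of the 237 windows held at least 1. The nearest kept region lay a median 210 kb from a member and the nearest other member 1964 kb away. Kept regions were a median 208 kb from the next kept region, so the members lay among kept regions at the distances these have from each other.

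The identity of the members depended on how the replicates were joined. With each list ranked by the first replicate alone and held at its length, 254 regions met the rule, of which 86 of the 273 members were part. By the second replicate alone it was 215, with 63 of the members. Both rankings shared 12 of the 273, and 137 met the rule under at least 1. With the 4 WT and KO lists shortened to the same length, 612 regions met the rule and included 263 of the members. An IDR limit of 0.01 gave 256 regions, in which 67 of the 273 (24.5%) were found again.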

How the data were processed

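Each deposited H3K27Ac, RAD21, PDS5A or IgG list joined 2 replicates of 1 condition. Per the submitters' processing notes the tools included Bowtie2 2.4.2, MACS2 2.2.7.1 and bedtools 2.30, and the build was GRCh37. The authors deposited the −log10 p of each replicate, the −log10 of the global IDR (limit 1.301). Peak calling settings and the IDR version are not given in the sources used here. The H2A samples (12 of 60) were not used. Regions were built from all 6 H3K27Ac lists, and an overlap was 1 bp or more. Where several deposited peaks met a region, the one with the lowest IDR gave its values. Shares carry Wilson 95% binomial intervals. With 1 list per condition there was no test. The scripts ran on pandas 2.3.3 and numpy 2.4.6 under Python 3.11.15 (scipy 1.17.1 for intervals, matplotlib 3.10.9 for plots), and the overlap code was tested on simulated intervals. No GRCh37 genome or annotation was at hand, so no gene, promoter or sequence was read from a position, and the gene lists planned were not used. Members, lists and rules were chosen with earlier results of these data known. Regions named by position were the 10 strongest members, the 5 strongest in both and in neither Rescue list, the 3 widest and the windows with most members (ties at 2 left out). None of the members met the rule's further class, those with no deposited peak in either treated list. Ranking by 1 replicate or by the higher replicate was added after the data were seen.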

Additional observations from a re-analysis of the deposited data

Results flagged for a closer look

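Members left the H3K27Ac list under osimertinib in WT and KO cells. In Rescue cells 50 of the 273 (18.3%, 14.2 to 23.3) were absent from the untreated and present in the treated list. The same was so at 3637 of all 21390 merged regions, a share within that interval. That share is partly set by the pooling, since a passing peak of treated Rescue cells alone was enough to form a region. Among the 3177 regions the members were drawn from it was so at 317 (9.98%), a share below it. All members, like nearly all of the 3177 regions, had a deposited peak in both Rescue lists, so the 50 crossed the IDR limit. Both treated values lay above both untreated ones at 21 of the 50. The difference between the genotypes was not tested, since each condition has 1 list, and both WT and KO lists chose the members. At 40 of the 50 the untreated Rescue replicates differed by more than 2 times.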

How the results depend on the processing

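Of 49 values recomputed under the alternatives planned, 40 stayed within the limits set (1.5 times for the count of members, the Wilson interval for shares). The count was 249 to 316 under IDR limits of 0.01 and 0.1, an overlap of 50%, a merging gap of 1000 bp, inclusion of chromosome X and direct overlap of WT and KO peaks. It was 612 with lists of equal length, 154 without regions on IgG peaks and 0 where absence meant no deposited peak, which left no shares to compute. With equal lengths the untreated Rescue share was 75.7%. At an IDR of 0.01 the share absent from treated Rescue was 28.6%, on RAD21 20.7% and on IgG 58.2%. Without regions on IgG peaks the RAD21 share was 14.3% and the IgG share 0 by construction. Ranked by 1 replicate alone (added after seeing the data), the count was 215 to 254, the untreated Rescue share 79.5% to 84.3%, its absent share 19.2% to 19.9%, RAD21 26.4% to 26.98%, IgG 37.2% to 42.1% and members with no deposited peak in either treated list 0%. Ranked by the higher replicate the count was 134, with 24 of the 273 among them. The cause of these shifts was not tested. No paired analysis was possible because each list joins both replicates and no result comes from a test. Shares at promoters were not run. Depth is unknown, so a peak absent from a list may be present below its limit.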
